A study of Mus musculus with 5 samples.

Results

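The genes described here encode 2-oxoglutarate dependent dioxygenases outside the best known histone demethylase and oxygen sensing families. They were chosen by name: JmjC-domain enzymes of other kinds, the TET enzymes, FTO and the ALKBH enzymes, the prolyl and lysyl hydroxylases of collagen, the OGFOD enzymes, aspartate beta-hydroxylase, and the phytanoyl-CoA and trimethyllysine hydroxylases. The list held 39 genes, of which 38 had a row among the 19061 gene rows of the deposited files, and all 38 were tested. The remaining gene, Tmlhe, was not analysed here.

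Poly(A) RNA from mouse hearts had been sequenced in 5 libraries. All came from C57BL/6 mice that carried a calcineurin transgene (MHC-CnATg), driven in heart muscle cells by a promoter of myosin heavy chain, and such hearts become severely hypertrophic. The vehicle group had 2 libraries. The JIB-04 group had 3 libraries, from mice given 50 mg/kg of JIB-04, which inhibits demethylases of the Jumonji type. Mice of both groups were dosed from 4 weeks of age, 3 times a week, until the hearts were collected on postnatal day 158. Every library therefore carried the transgene, and hearts without it were not analysed here. JIB-04 replicate 3 is titled CbAtg where the others have CnAtg, although its genotype label is the same. The labels do not state that each library is a separate animal. The p-values therefore set a group difference against the spread between these libraries, which may in part be technical. They give no sex, litter or sequencing batch, so no batch could be examined.

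Enzymes of this class bind iron and use molecular oxygen and 2-oxoglutarate, an intermediate of the citric acid cycle, to oxidise a substrate, and release succinate and carbon dioxide. Substrates include methyl groups on histones, DNA and RNA, proline and lysine residues of procollagen, and branched-chain fatty acids. JIB-04 was described as an inhibitor of the Jumonji histone demethylases, which share this chemistry. An inhibitor of an enzyme need not alter the amount of its mRNA, and the values below are mRNA levels, not activities. In the heart, collagen hydroxylases are known chiefly from fibroblasts, and the Asph locus also encodes junctin and junctate, proteins of the calcium store of muscle cells.

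The libraries held 32152168 to 37002846 reads, and 3 reads corresponded to 0.0804 to 0.0977 CPM, the deposited unit of reads scaled by library size. Ppp3ca, which encodes a calcineurin catalytic subunit, was at 6082 and 8022 CPM with vehicle and at 7275, 4341 and 5421 CPM with JIB-04. The 8 cardiomyocyte markers were present in every library. Their summed levels were 76234 and 87216 CPM with vehicle and 80348, 66209 and 72604 CPM with JIB-04. Ppp3ca and this sum put the libraries in the same order. The 8 fibroblast markers summed to 3201 and 3243 CPM with vehicle and 3227 to 3581 CPM with JIB-04. The 8 macrophage markers summed to 195.7 and 272.2 CPM with vehicle and 264.4 to 403.3 CPM with JIB-04, and 5 of them had higher values at an unadjusted limma p under 0.05. The 6 red blood cell markers tested summed to 1148 and 1788 CPM with vehicle and 425.1 to 862.1 CPM with JIB-04. The 7 endothelial markers summed to 670.9 and 693.6 CPM with vehicle and 603.7 to 816.6 CPM with JIB-04, and the 6 smooth muscle and pericyte markers to 1237 and 1643 CPM against 1115 to 1736 CPM. The 7 lymphocyte markers tested summed to at most 5.55 CPM in any library. At an unadjusted limma p under 0.05, 4 red blood cell markers also had lower values, and 1 fibroblast and 2 lymphocyte markers had higher values. Over all genes, 3.93% had higher and 2.51% lower values at that limit. Of the 8 macrophage markers, 7 had positive log2 fold changes and 1, Cd163, a negative one of -0.11. The median log2 fold change was -0.99 for the red blood cell markers and 0.57 for the macrophage markers. No marker passed the adjusted threshold. JIB-04 replicate 1 stood apart from the other JIB-04 libraries: without it 2689 of 14327 genes had an unadjusted limma p under 0.05, and 928 of 14414 with it. These are whole hearts, so fewer cells of a type and less RNA per cell cannot be told apart.

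The 38 dioxygenase genes spanned a wide range of mRNA levels, and none passed the test between vehicle and JIB-04 hearts. The JIB-04 minus vehicle log2 fold changes, on the log2(CPM + 1) scale, ran from -0.34 for Phyhd1 to 0.53 for P4ha3, with a median of 0.01. The median over all 14414 genes tested was -0.01. Positive values were found for 20 members and negative values for 18, against 6756 positive and 7658 negative values over all genes. With each library rescaled to the same sum, the counts were 24 and 14 for the members and 9091 and 5323 for all genes. On this scale the change of a gene at low CPM is understated.

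No member passed an adjusted p of 0.05 in limma, and neither did any other gene (0 of 14414, or 0%). At an unadjusted p under 0.05 there were 928 genes in limma, 946 in edgeR and 872 in limma-voom, and the last 2 tools also called 0 after adjustment. The smallest adjusted p of a member was 0.577, for Phyhd1. At an unadjusted limma p under 0.05, 1 member had higher values with JIB-04 (Kdm8, 2.63% of the members), where 3.93% of all genes did. On the lower side, 1 member had such a p (Phyhd1, also 2.63%), where 2.51% of all genes did. All 3 JIB-04 libraries lay above both vehicle libraries for 5 members, or 13.2%, where 10.7% of all genes did. They lay below both for 4 members, or 10.5%, where the share of all genes was 12.0%. Each of these shares was near that of all genes. DESeq2 on recovered reads called 68 genes higher (0.472%) and 16 lower (0.111%), none of them a member.

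The 95% confidence intervals give a range for the difference of each member, taken singly and resting on these few libraries. On the log2(CPM + 1) scale the limma interval lay within a 1.5-fold difference in either direction for 37 of the 38 members, the exception being P4ha3. It lay within a 1.25-fold difference for 21 of 38. These are differences in CPM + 1, so for members at low CPM, such as Kdm8, the range on CPM itself is wider. A p above the threshold does not by itself show that the groups were alike.

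**Figure D1:**
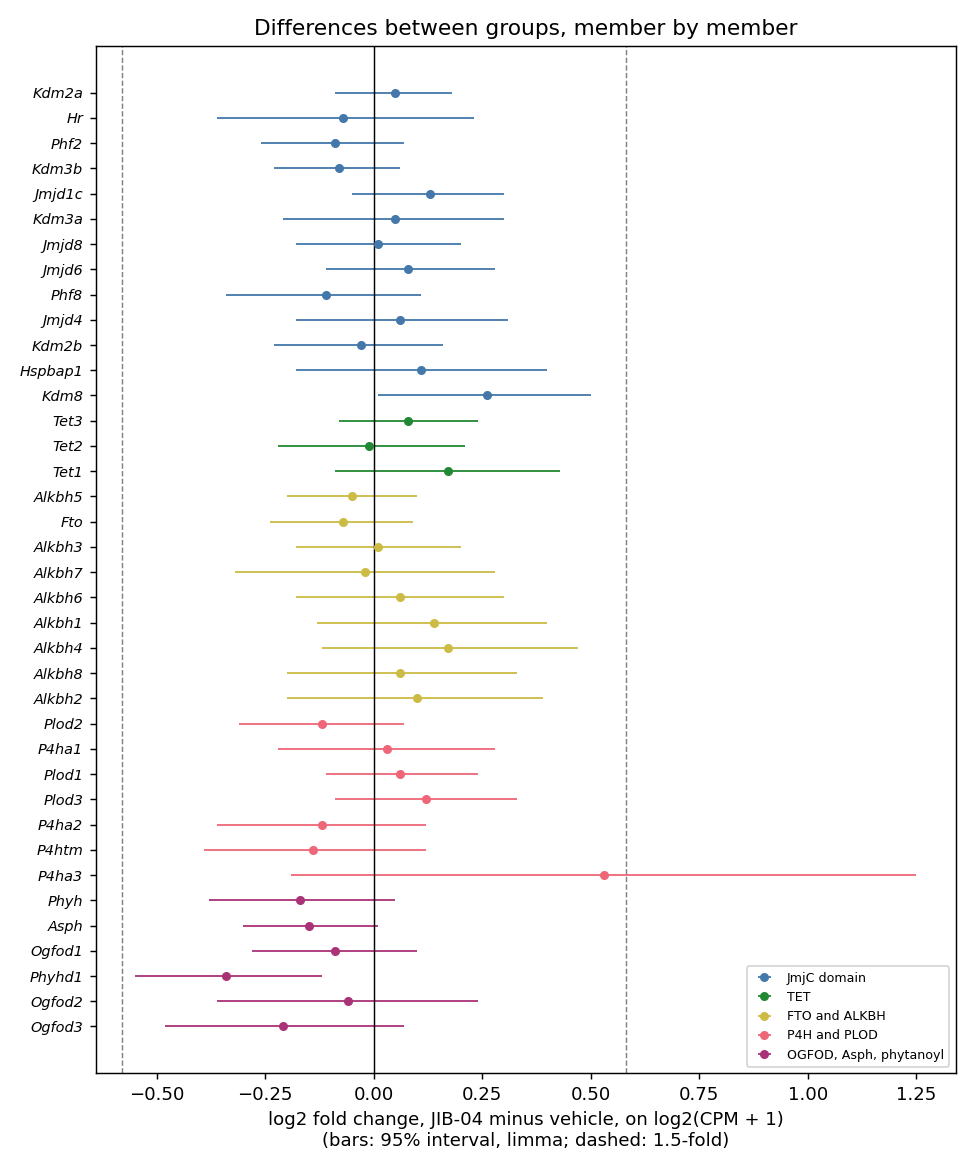
The log2 fold change of each of the 38 members, JIB-04 minus vehicle on log2(CPM + 1) (x axis), with bars for the limma 95% interval, colours for the role and dashed lines at a 1.5-fold difference. The interval of P4ha3 is the widest and the only one to cross a dashed line, and those of Phyhd1 and Kdm8 are the only ones that do not include 0.

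To compare levels between genes, CPM was divided by the kilobases of exon, taken from a GENCODE annotation of the same genome build. The exons of a gene's annotated transcripts were pooled, so these levels and their order depend on the pooled length. That length was 12.1 kb for Asph, whose locus encodes several proteins. Phyh, the peroxisomal hydroxylase that starts the breakdown of phytanic acid, had the highest level, 324 CPM per kb. Plod2 followed at 48.4, P4ha1 at 40.6 and Plod1 at 39.3 CPM per kb, all of them collagen hydroxylases. Phyhd1, at 27.3, and Asph, at 27.1 CPM per kb, were close to each other. The lowest members were Alkbh8 at 0.543, P4ha3 at 0.474 and Tet1 at 0.244 CPM per kb. Plod2, P4ha1, Plod1, Alkbh8 and the order of these levels were singled out after the values were seen.

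**Figure D2:**
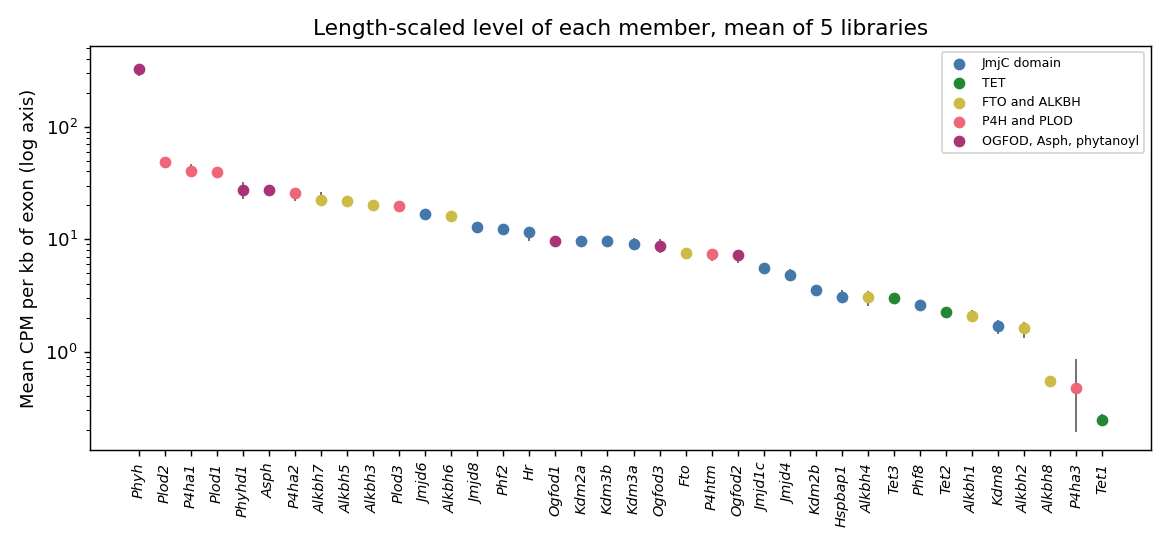
Mean level of each member over the 5 libraries in CPM per kilobase of exon (y axis, log scale), with vertical bars from the lowest to the highest library and colours for the role. Phyh stands at 324 and Tet1 at 0.244 CPM per kb, and the bar of P4ha3 is the longest.

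**Figure D3:**
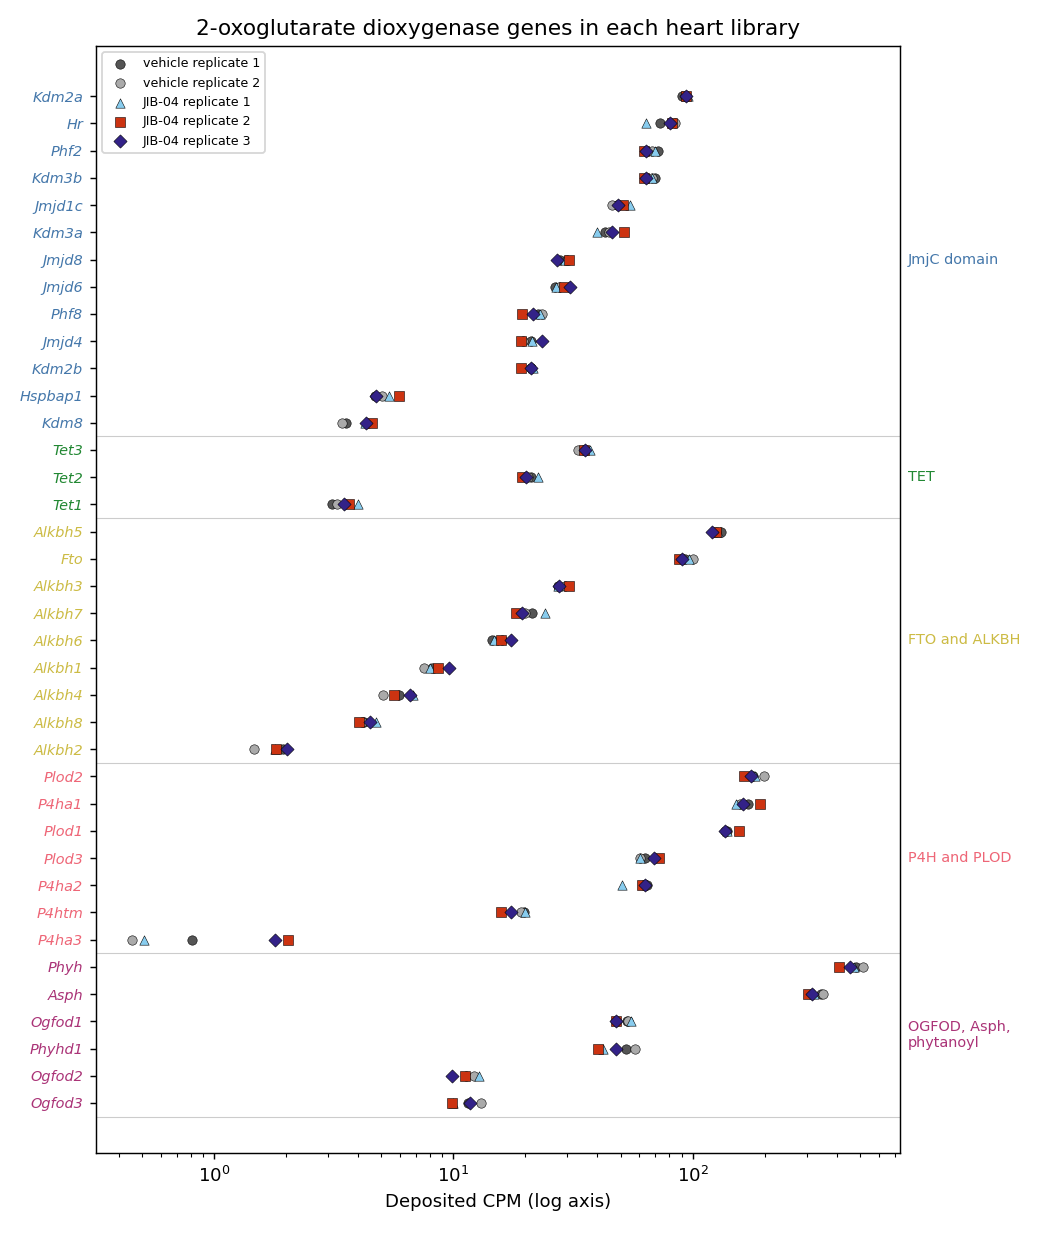
Deposited CPM of each member (x axis, log scale) in the 5 libraries, grouped by role, with circles for vehicle and a triangle, square and diamond for JIB-04 replicates 1, 2 and 3. For most members the symbols lie close together, and for P4ha3 they spread from 0.456 to 2.04 CPM.

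The 13 JmjC-domain members include demethylases of histone lysines, hydroxylases of proteins and proteins whose substrates are less settled. Of these, 8 had positive and 5 negative log2 fold changes, from -0.11 to 0.26 with a median of 0.05. Kdm2a, which binds unmethylated CpG islands and removes methyl groups from histone H3 lysine 36, was at 90.1 and 92.9 CPM with vehicle and at 95.7, 93.9 and 94.1 CPM with JIB-04. The 3 JIB-04 values were all above the vehicle values, but by little, with a log2 fold change of 0.05 (SE 0.06, limma adjusted p = 0.885).

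Kdm8 (also known as JMJD5), whose product is a JmjC protein hydroxylase, lies on chromosome 7 from 125444620 to 125462268 on the plus strand of mm10. It was at 3.57 and 3.42 CPM with vehicle and at 4.26, 4.55 and 4.32 CPM with JIB-04. The groups did not overlap, with means of 3.50 ± 0.11 (SD, n = 2) and 4.38 ± 0.16 CPM (SD, n = 3). The log2 fold change was 0.26 (SE 0.10, 95% interval 0.01 to 0.50), and it did not pass the threshold (limma adjusted p = 0.752). On recovered reads, edgeR gave 0.33.

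Jmjd1c, which encodes a JmjC protein of the KDM3 family, was at 48.3 and 45.9 CPM with vehicle and at 54.9, 51.1 and 48.8 CPM with JIB-04. All JIB-04 values were higher, replicate 3 only narrowly, and the log2 fold change was 0.13 (SE 0.07, limma adjusted p = 0.821). Kdm3b, a demethylase of histone H3 lysine 9 from the same family, had lower values with JIB-04: 69.8 and 67.8 CPM with vehicle against 67.7, 62.9 and 64.0 CPM with JIB-04. Its log2 fold change was -0.08 (SE 0.06, limma adjusted p = 0.84), and its groups overlapped once the CPM of each library was rescaled to the same sum. Kdm3a, the other member of that family in the list, was named after its values were seen and had overlapping groups: 43.1 and 44.8 CPM with vehicle against 40.0, 51.5 and 45.9 CPM with JIB-04. The KDM3 genes thus had values in both directions.

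The groups of the other 9 JmjC members overlapped. Those were Kdm2b, Kdm3a, Phf2, Phf8, Hr, Jmjd4, Jmjd6, Jmjd8 and Hspbap1, and the smallest limma adjusted p among them was 0.84, for Phf2. Over the 5 libraries the demethylases with a PHD finger, Phf2 and Phf8, ran from 62.6 to 71.8 and from 19.4 to 23.5 CPM. Hr, the corepressor known as hairless, had a broad range of 64.1 to 84.8 CPM, lowest in JIB-04 replicate 1. Kdm2b ran from 19.2 to 21.5 CPM, Jmjd4 from 19.2 to 23.6 CPM, Jmjd6 from 26.7 to 30.9 CPM, Jmjd8 from 27.2 to 30.4 CPM and Hspbap1 from 4.70 to 5.95 CPM. Jmjd8 shares 1208 bases with Stub1 on the other strand, and Stub1 was at 86.9 to 97.0 CPM. Whether the counting used strand is not given in the sources used here. Kdm2b brings a Polycomb complex (PRC1.1) to CpG islands, and 8 genes of that complex were measured. Of them 3 had positive and 5 negative log2 fold changes (4 and 4 after rescaling), with a median of -0.05, and none passed the threshold. Ring1, a ubiquitin ligase subunit, was at 19.5 and 20.0 CPM with vehicle and at 18.8, 17.2 and 17.7 CPM with JIB-04. Its log2 fold change was -0.14 (SE 0.08, limma adjusted p = 0.821), with groups that did not overlap.

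The TET enzymes oxidise 5-methylcytosine in DNA, the first step of active demethylation. All 3 genes were measured, and their log2 fold changes were -0.01, 0.08 and 0.17 for Tet2, Tet3 and Tet1. After rescaling to the same sum all 3 were positive. Tet3 was at 34.9 and 33.2 CPM with vehicle and at 37.2, 35.3 and 35.6 CPM with JIB-04. Every JIB-04 value exceeded both vehicle values (log2 fold change 0.08, SE 0.07, limma adjusted p = 0.86). Tet1 was at 3.12 and 3.26 CPM with vehicle and at 3.99, 3.67 and 3.49 CPM with JIB-04. The groups did not overlap here either, with means of 3.19 ± 0.10 (SD, n = 2) and 3.72 ± 0.25 CPM (SD, n = 3), and the log2 fold change was 0.17 (SE 0.11, limma adjusted p = 0.83). Tet2 had overlapping groups, 21.2 and 20.4 CPM against 22.6, 19.4 and 20.1 CPM.

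Other genes that write, read or remove DNA methylation were compared beside the TET genes. Of 13 such genes 12 were tested, 9 with positive and 3 with negative log2 fold changes, a median of 0.04 and none past the threshold. Leaving out JIB-04 replicate 1 gave 6 positive and 6 negative values and a median of 0.00. Mbd1, whose product binds methylated CpG sites, had the smallest p of that list. It was at 41.4 and 46.4 CPM with vehicle and at 31.3, 26.5 and 37.0 CPM with JIB-04. All JIB-04 values were lower, with a log2 fold change of -0.47 (SE 0.14, limma adjusted p = 0.661). Cxxc5, which encodes a CXXC zinc finger protein, was at 31.1 and 31.2 CPM with vehicle and at 34.5, 33.5 and 37.7 CPM with JIB-04, a log2 fold change of 0.17 (SE 0.08, limma adjusted p = 0.789). Tdg, the glycosylase that removes oxidised methylcytosines, had overlapping groups and a log2 fold change of 0.13.

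FTO and ALKBH5 remove methyl groups from adenosines of mRNA, and other ALKBH enzymes repair alkylated DNA or modify transfer RNA and proteins. None of these 9 members had groups that did not overlap, and 6 had positive and 3 negative log2 fold changes, from -0.07 to 0.17 with a median of 0.06. After rescaling 8 were positive and 1 negative. Alkbh5 was at 132.1 and 125.8 CPM with vehicle and at 128.3, 124.7 and 120.5 CPM with JIB-04. JIB-04 replicate 1 lay between the vehicle values, and the log2 fold change was -0.05 (SE 0.06, limma adjusted p = 0.886). With each library rescaled to the same sum, this value was 0.00. The other 8 genes were Fto, Alkbh1, Alkbh2, Alkbh3, Alkbh4, Alkbh6, Alkbh7 and Alkbh8, and their smallest limma adjusted p was 0.836, for Alkbh4. Over the 5 libraries Fto ran from 88.1 to 100.1 CPM. Alkbh2 and Alkbh3, which repair alkylated bases, ran from 1.47 to 2.02 and from 27.4 to 30.5 CPM. Alkbh1 and Alkbh8, which modify transfer RNA, ran from 7.55 to 9.60 and from 4.02 to 4.74 CPM. Alkbh1 shares 992 bases with Nrp on the same strand, and Nrp was at 0.391 to 0.723 CPM. The ranges were 5.08 to 6.78 CPM for Alkbh4, 14.5 to 17.4 CPM for Alkbh6 and 18.2 to 24.1 CPM for Alkbh7, a mitochondrial protein.

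Of 16 genes that write or read N6-methyladenosine, 15 were tested, and their log2 fold changes ran from -0.07 to 0.18 with a median of 0.02. Positive values numbered 9 and negative values 6 (13 and 2 after rescaling), and none passed the threshold. Ythdf1, a cytoplasmic reader, was at 46.1 and 49.0 CPM with vehicle and at 45.7, 44.3 and 46.2 CPM with JIB-04, with overlapping groups and a log2 fold change of -0.06 (SE 0.06, limma adjusted p = 0.872). The other reader Ythdf3 had -0.07 and Igf2bp2 had 0.18. Igf2bp2 was at 15.6 CPM in JIB-04 replicate 2 and at 8.61 to 10.2 CPM in the other libraries. Neither the erasers nor these writers and readers held a gene past the threshold.

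Prolyl 4-hydroxylase alpha subunits (P4ha1, P4ha2, P4ha3) make the hydroxyproline that holds the collagen triple helix together, and the lysyl hydroxylases (Plod1, Plod2, Plod3) prepare collagen for crosslinking. P4htm is a membrane-bound prolyl hydroxylase of the endoplasmic reticulum. The 7 genes had 4 positive and 3 negative log2 fold changes, from -0.14 to 0.53 with a median of 0.03, and all had overlapping groups. The median turned negative when 1 library was left out, to -0.06 for JIB-04 replicate 2 and -0.03 for vehicle replicate 2, and was 0.09 when JIB-04 replicate 1 was left out.

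Promoter sequences are shown for the prolyl 4-hydroxylase alpha subunits and for Kdm8 and Phyhd1, the members with the smallest p. They allow the hypoxia response core ACGTG, the letters bound by the hypoxia inducible factors, to be compared between them. P4ha1 and P4ha2 are known targets of those factors. Each window is the 250 bases before the gene start in the RefSeq table for GRCm38.p6, 5′ to 3′ on the gene's own strand, all on the plus strand. Capitals mark a match to ACGTG on either strand.
P4ha1: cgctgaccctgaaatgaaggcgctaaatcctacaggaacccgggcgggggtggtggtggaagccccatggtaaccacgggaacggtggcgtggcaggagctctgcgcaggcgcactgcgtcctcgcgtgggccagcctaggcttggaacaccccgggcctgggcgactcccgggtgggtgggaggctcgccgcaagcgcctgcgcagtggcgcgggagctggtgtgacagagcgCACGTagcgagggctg
P4ha2: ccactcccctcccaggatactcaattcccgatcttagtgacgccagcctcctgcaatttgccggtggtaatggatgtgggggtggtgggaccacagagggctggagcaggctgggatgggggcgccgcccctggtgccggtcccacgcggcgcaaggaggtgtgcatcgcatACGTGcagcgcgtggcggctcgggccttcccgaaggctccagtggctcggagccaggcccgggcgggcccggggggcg
P4ha3: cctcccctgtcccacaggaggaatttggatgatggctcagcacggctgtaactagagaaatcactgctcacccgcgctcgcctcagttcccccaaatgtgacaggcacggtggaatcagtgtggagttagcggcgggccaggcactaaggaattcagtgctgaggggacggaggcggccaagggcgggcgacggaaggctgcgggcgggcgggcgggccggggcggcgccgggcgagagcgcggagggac
Kdm8: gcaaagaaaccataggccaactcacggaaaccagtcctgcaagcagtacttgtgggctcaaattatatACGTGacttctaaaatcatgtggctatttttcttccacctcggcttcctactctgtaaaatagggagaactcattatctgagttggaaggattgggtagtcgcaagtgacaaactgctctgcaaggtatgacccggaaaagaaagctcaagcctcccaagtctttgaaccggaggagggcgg
Phyhd1: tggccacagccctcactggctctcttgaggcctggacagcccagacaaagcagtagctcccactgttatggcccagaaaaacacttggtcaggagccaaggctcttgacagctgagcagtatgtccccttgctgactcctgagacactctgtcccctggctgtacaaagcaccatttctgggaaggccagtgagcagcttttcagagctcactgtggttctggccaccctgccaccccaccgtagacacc

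The windows lie at chr10:59323046-59323295, chr11:54100674-54100923, chr7:100285270-100285519, chr7:125444370-125444619 and chr2:30265953-30266202, in the order printed. The first capital lies at position -16 in P4ha1, -78 in P4ha2 and -182 in Kdm8, counted from the gene start, and the windows of P4ha3 and Phyhd1 hold no match. None of the 3 matches lies inside CACGTG, the E-box that contains the same letters. A window was in the table for 32 of the 38 members, and 9 of these (28.1%) held at least 1 match: Alkbh7, Hspbap1, Jmjd6, Kdm8, P4ha1, P4ha2, Phf8, Plod3 and Tet2. Among all 32851 windows of the same length in the table, 16.6% held a match. Those windows belong to 27025 gene names, some with more than 1 window, and were not limited to genes tested here. The members had 1 window each, so these shares are not like for like. The members with a match had no common direction, with Phf8 at -0.11 and Kdm8 at 0.26. A match is a stretch of letters, not a measured binding site.

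P4ha3, on chromosome 7 from 100285520 to 100319699 on the plus strand of mm10, had the largest log2 fold change of all members and also the widest interval. It was at 0.806 and 0.456 CPM with vehicle and at 0.510, 2.04 and 1.79 CPM with JIB-04. These values rest on 30 and 14 reads, and on 17, 76 and 63 reads. JIB-04 replicates 2 and 3 were the high libraries, while replicate 1 lay between the vehicle libraries. The means were 0.631 ± 0.248 (SD, n = 2) and 1.45 ± 0.82 CPM (SD, n = 3). The log2 fold change was 0.53 (SE 0.30, 95% interval -0.19 to 1.25, limma adjusted p = 0.821). On recovered reads the estimate was 1.19 with edgeR and 1.20 with DESeq2. Without JIB-04 replicate 1 it was 0.84 on the log2(CPM + 1) scale, with a limma adjusted p of 0.0762, and without JIB-04 replicate 2 it was 0.34.

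Plod2 was at 178.2 and 199.3 CPM with vehicle and at 181.9, 163.9 and 174.9 CPM with JIB-04, so JIB-04 replicate 1 lay between the vehicle libraries. The log2 fold change was -0.12 (SE 0.08, limma adjusted p = 0.83). Its transcript shares 647 bases with B430319G15Rik on the other strand, which was at 3.41 to 4.50 CPM. The remaining collagen hydroxylases are given as values chosen after they were seen. P4ha1 was at 171.2 and 157.3 CPM with vehicle and at 152.6, 191.6 and 161.7 CPM with JIB-04, highest in JIB-04 replicate 2. Plod1 was also highest in that library, with 156.1 CPM, and ran from 136.3 to 139.5 CPM elsewhere. Plod3 was at 63.2 and 60.5 CPM with vehicle and at 60.4, 72.3 and 69.3 CPM with JIB-04. It shares 864 bases with Znhit1 on the other strand, and Znhit1 was at 27.7 to 32.0 CPM. P4ha2 was lowest in JIB-04 replicate 1, at 50.9 CPM, and at 61.5 to 64.4 CPM in the others. P4htm was at 19.8 and 19.2 CPM with vehicle and at 19.9, 15.9 and 17.4 CPM with JIB-04.

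The hydroxylases were set beside the genes of their substrate, the collagen chains. All 17 collagen chain genes had positive log2 fold changes, with a median of 0.24 and none past the threshold. Their summed level was 3935 and 3344 CPM with vehicle and 3425, 6084 and 4373 CPM with JIB-04. JIB-04 replicate 2 stood highest, and replicate 1 lay between the vehicle libraries, as it did for P4ha3. Without replicate 2 the median was 0.03, with 9 positive and 8 negative values, and without replicate 1 it was 0.44 with 17 positive. Col3a1, a fibrillar collagen chain, was at 617.2 and 447.2 CPM with vehicle and at 575.3, 962.3 and 887.3 CPM with JIB-04. Its log2 fold change was 0.59 (SE 0.24, limma adjusted p = 0.767). Col1a1 and Col14a1 had log2 fold changes of 0.41 and 0.29, again with overlapping groups. The fibroblast marker sum was 3539 and 3581 CPM in JIB-04 replicates 2 and 3, and 3201 to 3243 CPM in the other 3 libraries. Its markers did not move together. Postn was at 519.6 CPM in JIB-04 replicate 2 and at 188.6 to 303.5 CPM elsewhere. Lum and Fap were also highest in replicate 2, Pdgfra and Gsn were lowest there, and Dcn, Dpt and Tcf21 were neither. Ppp3ca was lowest in JIB-04 replicate 2, at 4341 CPM, and next lowest in replicate 3, at 5421 CPM. The part of the fibroblast markers or of Ppp3ca in the collagen values was not tested.

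Among 19 genes for folding, crosslinking or hydroxylation partners of collagen, 16 had positive and 3 negative log2 fold changes, with a median of 0.18 and none past the threshold. Leaving out JIB-04 replicate 2 gave this list a median of 0.05, and leaving out replicate 1 gave 0.27. Fkbp10, a collagen chaperone, was at 24.4 and 24.6 CPM with vehicle and at 25.8, 29.2 and 29.4 CPM with JIB-04. The groups did not overlap, with a log2 fold change of 0.19 (SE 0.08, limma adjusted p = 0.793). Lepre1 (P3h1), which hydroxylates proline at its 3 position and is itself a dioxygenase of this class, was at 24.1 and 21.5 CPM with vehicle and at 24.4, 29.8 and 25.4 CPM with JIB-04. Its log2 fold change was 0.21 (SE 0.11, limma adjusted p = 0.821). Loxl4, a lysyl oxidase, had 0.28 with overlapping groups. Lox, the main lysyl oxidase and named after its values were seen, was at 25.7 and 22.0 CPM with vehicle and at 17.5, 58.1 and 52.9 CPM with JIB-04. With all 5 libraries its log2 fold change was 0.65 (SE 0.47, limma adjusted p = 0.836). It passed the threshold only when JIB-04 replicate 1, its lowest library, was left out (log2 fold change 1.19, limma adjusted p = 0.0291). Over all genes, limma called 27 higher and 2 lower in that setting.

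**Figure D4:**
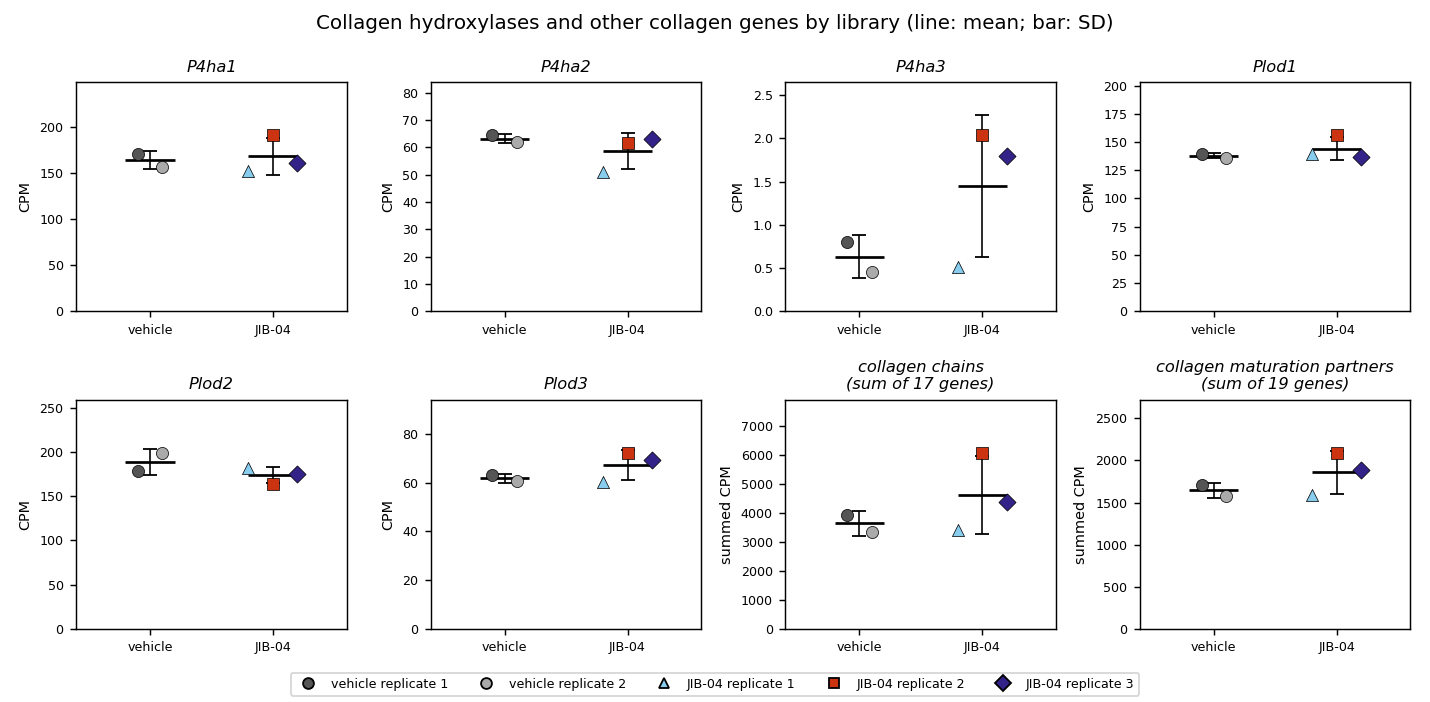
CPM of 6 collagen hydroxylase genes and the summed CPM of 17 collagen chain genes and 19 collagen maturation genes (y axes from 0), with one symbol per library, a line at the group mean and a bar for the SD (vehicle n = 2, JIB-04 n = 3). JIB-04 replicate 1 lies at or near the vehicle libraries for P4ha3, Plod3 and both sums, and replicate 2 is highest for P4ha1, Plod1 and both sums.

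The last role group held the OGFOD enzymes, Asph and the phytanoyl-CoA hydroxylases. All 6 tested members had negative log2 fold changes, from -0.34 to -0.06 with a median of -0.16, and 3 of the 6 had groups that did not overlap, where 12.0% of all genes lay below both vehicle libraries. Without JIB-04 replicate 3, Ogfod2 had a positive value and the other 5 were negative. Their summed level was 953.1 and 1006 CPM with vehicle and 914.3, 821.6 and 887.8 CPM with JIB-04. JIB-04 replicate 2 was the lowest library of this sum and also of the cardiomyocyte marker sum. The 8 cardiomyocyte markers likewise all had negative log2 fold changes, with a median of -0.17 (7 of 8 negative once the libraries were rescaled to the same sum), and their part in this result was not tested.

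Phyhd1, on chromosome 2 from 30266203 to 30282149 on the plus strand of mm10, encodes a relative of phytanoyl-CoA hydroxylase. It was at 52.9 and 57.2 CPM with vehicle and at 42.1, 40.4 and 47.9 CPM with JIB-04. All 3 JIB-04 libraries were lower than both vehicle libraries, with means of 43.5 ± 3.9 (SD, n = 3) against 55.1 ± 3.1 CPM (SD, n = 2). The log2 fold change was -0.34 (SE 0.09, 95% interval -0.55 to -0.12), or 0.792 times the vehicle level. The limma adjusted p was 0.577, while DESeq2 gave an adjusted p of 0.283. It was the member with the smallest p, and it did not pass the threshold.

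Phyh, on chromosome 2 from 4918996 to 4938743 on the plus strand of mm10, was at 480.4 and 517.8 CPM with vehicle and at 472.3, 407.9 and 454.7 CPM with JIB-04. The JIB-04 libraries were all lower, replicate 1 by little, and the log2 fold change was -0.17 (SE 0.09, 95% interval -0.38 to 0.05, limma adjusted p = 0.821). Asph, on chromosome 4 from 9449085 to 9669344 on the minus strand of mm10, was at 343.9 and 352.3 CPM with vehicle and at 321.9, 304.4 and 315.6 CPM with JIB-04. Its groups did not overlap, with means of 348.1 ± 5.9 (SD, n = 2) and 314.0 ± 8.8 CPM (SD, n = 3). The log2 fold change was -0.15 (SE 0.06, 95% interval -0.30 to 0.01, limma adjusted p = 0.793). The files give 1 value for the locus, so the hydroxylase, junctin and junctate transcripts are not separated. Asph shares 2607 bases with Clvs1 on the other strand, which was at 0.107 to 0.256 CPM.

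Ogfod1, a ribosomal prolyl hydroxylase, and the less studied Ogfod2 and Ogfod3 had overlapping groups. Ogfod1 ran from 47.8 to 55.1 CPM over the 5 libraries and Ogfod2 from 9.83 to 12.9 CPM. Ogfod3 was at 11.6 and 13.1 CPM with vehicle and at 10.02, 9.86 and 11.8 CPM with JIB-04, with a log2 fold change of -0.21 (SE 0.11, limma adjusted p = 0.821). Ogfod3 shares 216 bases with Hexdc on the other strand, and Hexdc was at 9.92 to 11.2 CPM.

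**Figure D5:**
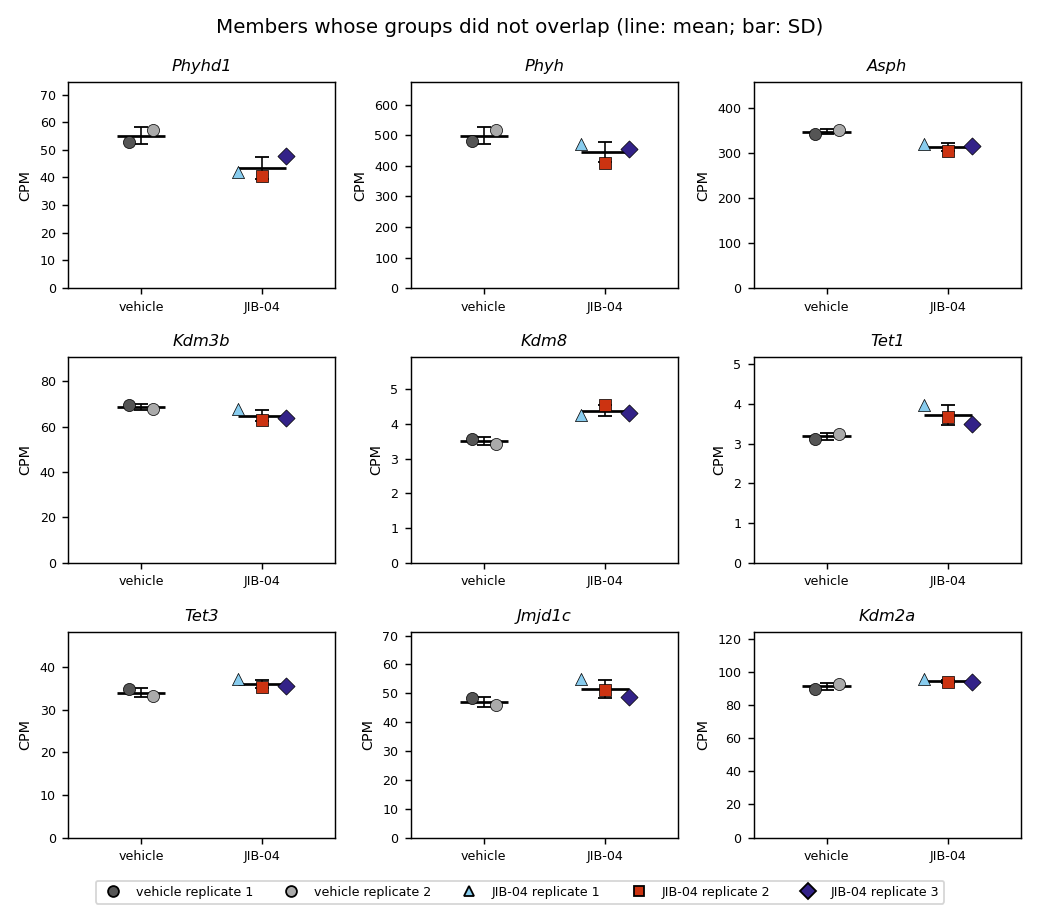
CPM (y axes from 0) of the 9 members whose JIB-04 and vehicle libraries did not overlap, with one symbol per library, a line at the group mean and a bar for the SD (vehicle n = 2, JIB-04 n = 3). Of the 38 members tested, 13.2% were higher in this way, against 10.7% of all genes, and 10.5% were lower, against 12.0%. Phyhd1 has means of 55.1 CPM with vehicle and 43.5 CPM with JIB-04, while the groups of Kdm2a and Kdm3b are separated by little.

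Other steps of phytanate breakdown and carnitine use were represented by 9 genes, 8 of them tested. All 8 had negative log2 fold changes, from -0.14 to -0.04 with a median of -0.09, and none had groups that did not overlap or passed the threshold. Once the libraries were rescaled to the same sum, 7 were negative, and without JIB-04 replicate 2, 6 were. The median was -0.03 when JIB-04 replicate 2 was left out and -0.18 when replicate 1 was. Hacl1, the lyase that acts after phytanoyl-CoA hydroxylase, was at 10.3 and 10.7 CPM with vehicle and at 10.8, 8.60 and 9.15 CPM with JIB-04. Pex7, the receptor that imports Phyh into peroxisomes, had a log2 fold change of -0.11 (SE 0.09), and Amacr had -0.10. The summed level of the 8 genes was 669.0 and 727.4 CPM with vehicle and 726.6, 580.5 and 655.3 CPM with JIB-04. This put the libraries in the same order as the cardiomyocyte marker sum and Ppp3ca, and the part of either was not tested.

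Genes that make or consume 2-oxoglutarate, the shared cosubstrate, were compared next. Of 21 genes, 20 had negative log2 fold changes and 1 a positive one, with a median of -0.11, and none passed the threshold. Without vehicle replicate 2, 18 were negative and 3 positive. The median was -0.19 when JIB-04 replicate 1 was left out, and -0.06 when JIB-04 replicate 2 or vehicle replicate 2 was left out or the libraries were rescaled. For 4 of the 21 genes all JIB-04 libraries lay below both vehicle libraries, where 12.0% of all genes did. Gpt2, a mitochondrial alanine transaminase that interconverts 2-oxoglutarate and glutamate, was at 28.1 and 32.7 CPM with vehicle and at 28.0, 18.5 and 21.6 CPM with JIB-04. Its log2 fold change was -0.42 (SE 0.17, limma adjusted p = 0.752). Idh1, the cytosolic isocitrate dehydrogenase, had -0.15 (SE 0.07). The summed level of the set was 12575 and 13882 CPM with vehicle and 13293, 11227 and 12167 CPM with JIB-04. The libraries again stood in the order of the cardiomyocyte marker sum and of Ppp3ca. All 8 of those markers had negative values, and the part of either was not tested.

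Finally, the members were set beside the other dioxygenases of the class, which are mainly histone demethylases and oxygen sensors, with collagen proline 3-hydroxylases and a few others. Of 24 such genes 20 were tested, 9 with positive and 11 with negative log2 fold changes and a median of -0.02, with no gene past the threshold and a smallest limma adjusted p of 0.821, for Lepre1. There were 12 positive and 8 negative values after rescaling, and 5 positive and 15 negative when JIB-04 replicate 1 was left out. Egln2, an oxygen sensing prolyl hydroxylase, had a log2 fold change of -0.12, and 2410016O06Rik had 0.25. Egln3, a hypoxia inducible prolyl hydroxylase named after its values were seen, was at 170.6 CPM in JIB-04 replicate 2 and at 82.5 to 94.7 CPM in the other libraries. Kdm3a and P4ha1 were also highest in that library. Egln1, Egln2 and Plod2 were lowest in it, at 390.6, 49.3 and 163.9 CPM, and P4ha2 lay within the range of the other libraries. Whether these genes share a response was not tested.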

How the data were processed

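RNA from the 5 heart samples was extracted with Trizol and made into stranded mRNA libraries, per the labels' protocols. The submitters' processing notes list build mm10 and, in no stated role or order, edgeR, featureCounts, Subread, TopHat2 2.0.12, FastQC 0.11.2 and Picard 1.127. The deposited values, in a column headed CPM, are a normalised signal: columns sum to 954981 to 1046902, so a normalisation factor appears to have been applied by the authors. Every value was a whole multiple of 1 read (100% within 0.01), so whole reads were recovered. The blank row in each file was left out.

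Genes were kept with filterByExpr (10 reads, 15 in total), leaving 14414. limma 3.58.1 (R 4.3.3) with a trend was fitted to log2(CPM + 1). P-values were adjusted by Benjamini-Hochberg over every gene tested, with a threshold of 0.05, and the fit had 3 residual degrees of freedom. It was tested on simulated data with changes larger than the limma log2 fold changes of the members. That test does not show how well differences of the members' size are found. edgeR 4.0.16, limma-voom and DESeq2 1.42.0 on the recovered reads were alternatives. Intervals are limma's, for the difference between groups, and rest on the spread between libraries.

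Values in every library are given for members whose groups do not overlap or whose log2 fold change is at least 0.3 in size, with a mean of at least 1 CPM, and for the member of highest mean CPM, not scaled by length, in each of 5 roles. Up to 3 genes per pathway list are named, by smallest p. A gene that this rule would name is not reported here. The members and lists were chosen with earlier results of these data known. Coordinates are those of the files, 1-based, on mm10.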

Additional observations from a re-analysis of the deposited data

How the results depend on the processing

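No member passed the adjusted threshold under any of the 13 alternatives. Over all genes, DESeq2 called 68 genes higher and another 16 lower (with 805 at an unadjusted p under 0.05 and 280 lacking an adjusted p), where limma, edgeR and limma-voom called 0 (928, 946 and 872 at an unadjusted p under 0.05). With 1 library left out, limma called 0 to 27 genes higher and 0 to 2 lower, the most without JIB-04 replicate 1. In that setting 8 members (21.1%) had an unadjusted limma p under 0.05, against 18.8% of all genes. Among collagen maturation genes the count past the threshold was 0 to 1 with 1 library left out, the 1 being Lox without JIB-04 replicate 1. Members whose groups did not overlap numbered 7 to 10 higher (18.4% to 26.3%) and 4 to 14 lower (10.5% to 36.8%) with 1 library left out, where 15.6% to 23.4% and 17.2% to 29.0% of all genes did, as fewer libraries separate more easily. The 14 came without JIB-04 replicate 1, where the share of all genes was 29.0%. With a single vehicle library left, that library was assumed to vary like the JIB-04 group. The members' median log2 fold change was 0.06 with each library rescaled to the same sum, and -0.01 to 0.03 with 1 library left out. Rescaling moved the median of all genes from -0.009 to 0.038, and Alkbh5 to 0.00. The sign of the log2 fold change was the same in every setting for 25 members and differed in at least 1 setting for 13. Phyhd1 had negative values in every setting, and its unadjusted p was above 0.05 without vehicle replicate 2. With the replicate block no gene passed (532 at an unadjusted p under 0.05), and Phyhd1 was at -0.41 and P4ha3 at 0.40. Same-numbered libraries did not deviate together (r = -0.133 and -0.135 across 14414 genes, which are not independent), so the numbers were not taken to pair the libraries. The low read counts of P4ha3 limit its precision.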
